A study of Hordeum vulgare with 28 samples.

Results

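Of the 25592 barley genes counted, 41 were lowered in leaves 2 h after mechanical wounding while their mean level stayed inside a window around the control in the 5 other treatments. These 41 genes were chosen from the measured values. Counts were scaled to CPM, the counts of a gene per 1000000 counts of its library, averaged over 4 libraries per group, and the change of a gene was the log2 ratio of its group mean to its control mean, with 0.5 CPM added to both. A member had a control mean from 5 to below 1000 CPM, a change of −1.5 or lower at 2 h after wounding, and a change between −0.6 and 1 after 24 h of wounding and after 2 and 24 h of feeding by each mite. The low level at 2 h and the near-control levels elsewhere are therefore what defined the genes, and they are given as a description.

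The study compared barley (*Hordeum vulgare*, cultivar Morex) leaves fed on by a grass specialist spider mite, *Oligonychus pratensis* (BGM), by a generalist, *Tetranychus urticae* (TSSM), or wounded by hand, at 2 time points. The fifth leaf of 30-day-old plants was used, and a section was enclosed by wax barriers in every group, the controls included. The groups were uninfested controls (C), *O. pratensis* for 2 and 24 h (O2 and O24), *T. urticae* strain W-GR for 2 and 24 h (T2 and T24), and leaves pressed with 60 grit sandpaper 2 or 24 h earlier (W2 and W24). Adult female mites numbered 400 per leaf section for 2 h and 200 for 24 h, so time and mite number cannot be told apart between O2 and O24 or between T2 and T24. Each of the 7 groups had 4 libraries, each from the enclosed section of 1 leaf, and all were harvested together. Both mites were acclimated on barley before use. Before that *T. urticae* was kept on kidney bean, while *O. pratensis* was collected from maize and never kept on bean. Mite species and rearing history therefore cannot be told apart. The same control group served both times, so every change from the control shares the same 4 libraries.

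As background, wounding a leaf raises jasmonate, a hormone that switches on defense genes and holds back growth, and messenger RNAs for light harvesting and growth commonly become less abundant for a time. The level of a messenger RNA in whole tissue reflects both its synthesis and its decay, and in whole leaf sections fewer cells of a type and less RNA per cell cannot be told apart. Chloroplasts transcribe part of their own genome with an RNA polymerase that needs nuclear-encoded partner proteins, and they break leaf starch down to maltose, which leaves through a carrier in their envelope.

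All 41 members carry identifiers that the files do not pair with names. The study's table of reciprocal best protein matches, of which 1998 pairs were held here, links 5 of the 41 to an *Arabidopsis* locus, and roles below are those of the *Arabidopsis* partner. These 5 are MLOC_34008 (AT1G21680), MLOC_15972 (AT3G54090), MLOC_17990 (AT2G24280), MLOC_16849 (AT5G17520) and MLOC_14746 (AT3G24320). MLOC_71172 and MLOC_56994 were added as the members without a partner that had the lowest change in W2.

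The libraries held 11708010 to 38321258 counts, and the lowest count of any member in any library was 18. The leaf label was checked with 7 photosynthesis genes, whose summed level was 13152 ± 1233 CPM (SD, n = 4) in C and 5655 ± 647 CPM in W2. It was 4662 ± 415 CPM in O24 and 7137 ± 1142 CPM in T24. Means in O2, T2 and W24 ran from 10561 to 12094 CPM. Among the 10977 genes with a control mean in the range the rule used, the median change was −0.07 in W2, 0.11 in O24 and 0.14 in T24. On library sizes adjusted by the trimmed mean of M-values (TMM), those medians were −0.08, −0.10 and −0.07, so values from the 24 h mite groups were lower on that scale.

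The 41 members were 10.5% of the 389 genes that met the W2 limit within the control range, and the other 348 left the window in another treatment. Of those 348, 329 lay below the window in O24, 268 in T24 and 30 in W24, with 43 below it in T2 and 25 in O2. In 266 genes the change lay below the window in both 24 h mite groups. O24 was the only treatment that kept 64 genes out, compared with 3 for T24, 3 for W24, 2 for T2 and 1 for O2. The median change in O24 was −1.58 over the 348 genes and −0.23 over the 41 members. In T24 these medians were −0.93 and −0.09, and in W24 they were −0.20 and −0.10. In the plot of the changes in both 24 h mite groups, most of the 348 genes lay to the lower left of the members. The rule sorted the genes by these changes, so the differences between the 2 sets follow from it and are a description.

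**Figure D1:**
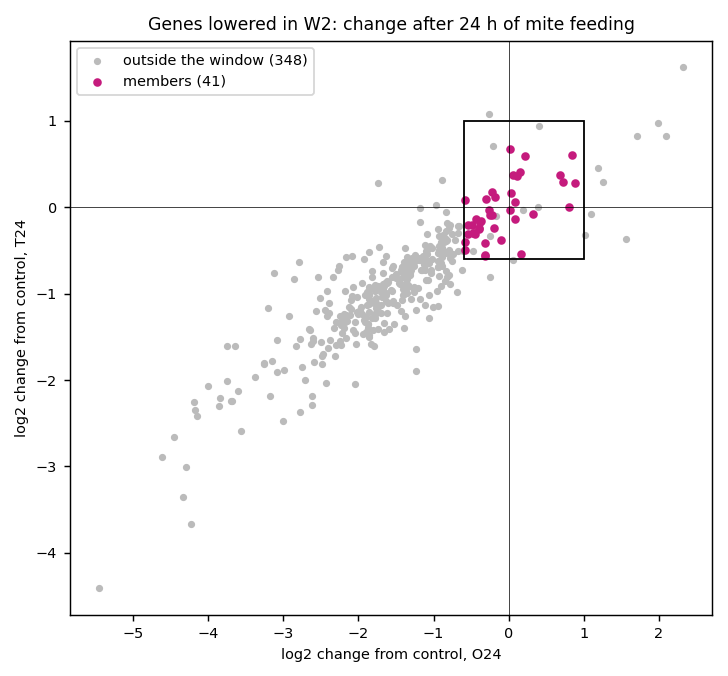
Each point is 1 of the 389 genes lowered in W2, with its log2 change from the control mean in O24 (horizontal) and in T24 (vertical), the 41 members are coloured and the box is the window the rule set. Most of the 348 genes outside lie to the lower left of the box, with 266 below the window in both groups.

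At the W2 limit no gap separated the members from the genes outside. The 3 members nearest the W2 limit had changes of −1.52, −1.51 and −1.51, and the 3 nearest genes outside had −1.4999, −1.49 and −1.48. A limit of −1.4 would have added 28 genes and −1.0 would have added 255. In O24 the lowest member was at −0.58 and the nearest gene below the window at −0.61. In W24 these values were −0.59 and −0.66.

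Control means of the members ran from 5.88 to 424 CPM with a median of 19.6 CPM. In 14 members the control mean was under 10 CPM, in 19 it was from 10 to under 50 CPM, in 5 from 50 to under 100 CPM and in 3 it was 100 CPM or more. W2 means ran from 1.40 to 144 CPM with a median of 5.57 CPM. The W2 mean was 19.1% to 34.0% of the control mean, with a median of 29.0%. The change in W2 ran from −2.30 to −1.51, and was −2 or lower in 3 members.

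Added over the 41 members, the level was 1808, 2031, 1816 and 1634 CPM in the 4 C libraries and 742, 463, 508 and 552 CPM in the 4 W2 libraries. The 4 W24 libraries held 1874, 1925, 1930 and 1746 CPM. W2 libraries were all far below the controls, and W24 libraries overlapped them. The summed level was 1822 ± 163 CPM (SD, n = 4) in C, 1678 ± 105 CPM in O2, 1617 ± 129 CPM in T2, 566 ± 122 CPM in W2, 1623 ± 136 CPM in O24, 1606 ± 67.9 CPM in T24 and 1869 ± 85.5 CPM in W24.

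**Figure D2:**
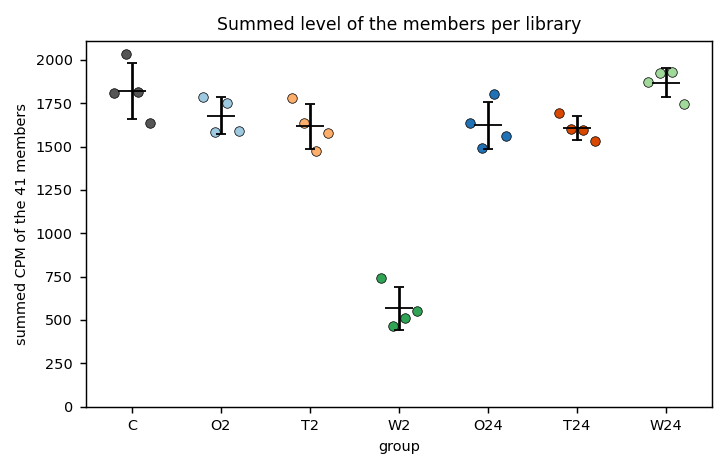
Points are the summed CPM of the 41 members in each library, by group, with the mean and SD of 4 libraries. The W2 libraries lie between 463 and 742 CPM, and the 24 other libraries between 1473 and 2031 CPM.

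In all 41 members every W2 library was below every C library, where 26.1% of the 16948 genes tested showed that order. In 40 of 41 every W2 library was also below each of the 24 other libraries, compared with 7.77% of tested genes. Both counts follow from the rule and are no evidence about the members. The exception was MLOC_319, named after its values were seen, for which O2 replicate 1 measured 16.6 CPM and W2 replicate 3 measured 17.5 CPM.

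The members were not equally low in the 4 W2 libraries. The median over members of the log2 ratio to the control mean was −1.45 in replicate 1, −1.89 in replicate 2, −1.83 in replicate 3 and −1.72 in replicate 4. Replicate 1 had the highest of the 4 values in 32 of the 41 members, and replicate 2 the lowest in 20. Replicate 1 also had the largest share of counts on barley genes paired with chloroplast-encoded *Arabidopsis* loci, 1.13%. The 3 other W2 libraries had 0.51% to 0.80%, and the part of this in the result was not tested. Without W2 replicate 1 the rule found 66 genes, 39 of them members, and without C replicate 2, whose median ratio was 0.23 against −0.07 to −0.04 in the 3 other controls, it found 29 genes, 24 of them members.

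**Figure D3:**
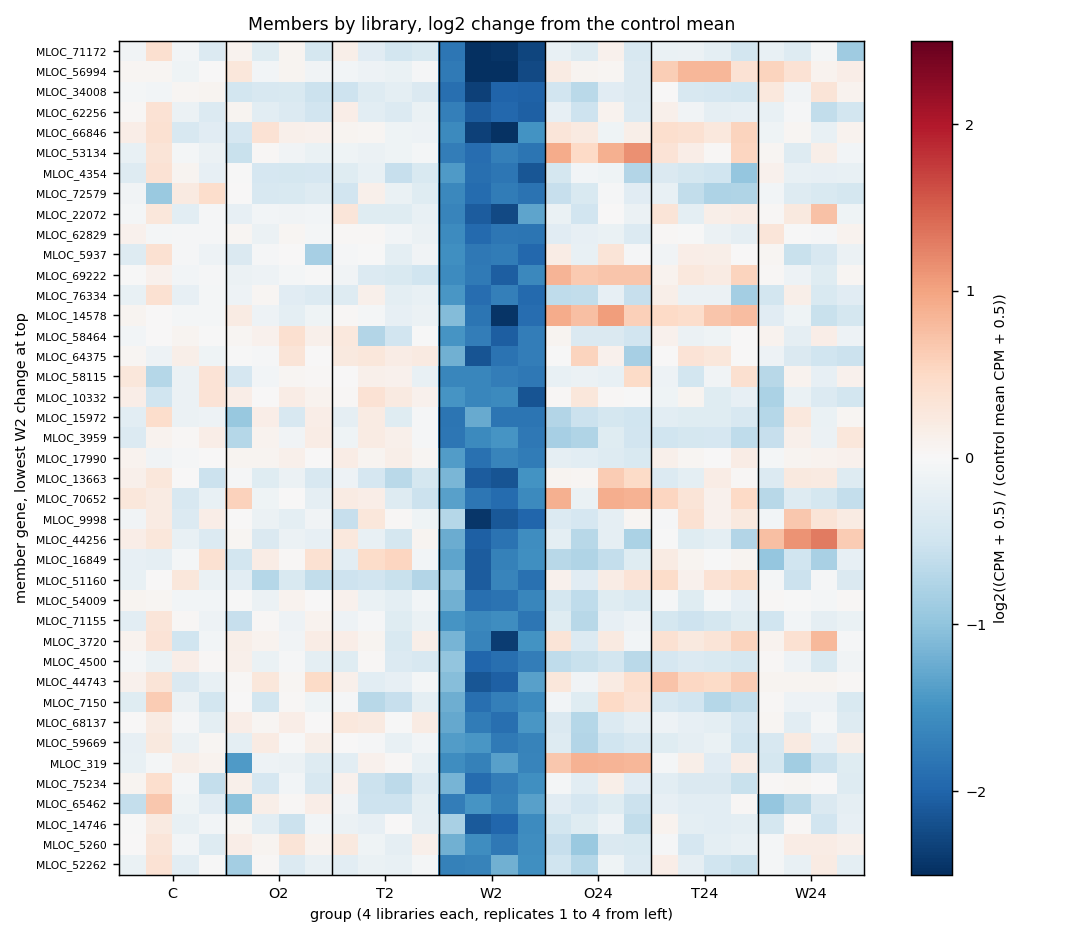
Rows are the 41 members ordered by their change in W2, columns are the 28 libraries in groups of 4, and colour is the log2 ratio of the library to the control mean, with the darkest colours also holding values beyond the scale. The 4 W2 columns are blue in every row, and palest in replicate 1 for 32 members.

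The partner of MLOC_15972 is FLN1, a fructokinase-like protein that associates with the plastid-encoded RNA polymerase in *Arabidopsis*. MLOC_15972 measured 17.5, 28.9, 18.98 and 19.2 CPM in the 4 C libraries, with the 4 W2 libraries at 5.57, 8.55, 5.58 and 5.61 CPM and the 4 W24 libraries at 12.7, 25.6, 18.9 and 21.8 CPM. All 4 W2 values lay below every control value, the highest control being replicate 2, and W24 overlapped the controls. With mite feeding it measured 10.8, 23.7, 15.8 and 23.6 CPM in O2, 17.99, 24.3, 17.05 and 20.7 CPM in T2, 12.5, 14.4, 15.5 and 14.8 CPM in O24 and 17.4, 17.1, 17.1 and 15.96 CPM in T24. The O2 values were widely spread, whereas those of T24 were close together, and all lay above the W2 values. O2 and T2 overlapped the controls. Every O24 and T24 library was below every control library, narrowly so in T24 (17.44 against 17.48 CPM). The change from the control was −1.66 in W2, −0.55 in O24 and −0.10 in W24.

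MLOC_16849 pairs with MEX1, the carrier that exports maltose from the chloroplast when starch is degraded in *Arabidopsis*. The 4 C libraries measured 15.1, 14.96, 16.8 and 22.97 CPM for MLOC_16849, with the 4 W2 libraries at 6.72, 3.77, 5.04 and 5.68 CPM and the 4 W24 libraries at 8.69, 12.3, 9.68 and 15.02 CPM. The W2 libraries were the lowest and W24 lay between them and most controls, with 1 W24 library inside the control range. The mite libraries measured 12.6, 19.9, 17.9 and 22.8 CPM in O2, 14.5, 24.3, 25.6 and 16.6 CPM in T2, 10.6, 10.2, 11.4 and 14.01 CPM in O24 and 20.2, 18.4, 17.4 and 18.4 CPM in T24. O24 values lay below all T24 values and all control values. Group means were 17.5 ± 3.77 CPM (SD, n = 4) in C, 5.304 ± 1.23 CPM in W2, 11.4 ± 2.84 CPM in W24, 11.5 ± 1.72 CPM in O24 and 18.6 ± 1.16 CPM in T24. The changes of −0.58 in O24 and −0.59 in W24 were close to the lower edge of the window. Between O24 and O2 the gene fell by 0.82 ± 0.21 on the log2 scale (SE; edgeR, adjusted p = 0.00125), which did not pass the fold limit, and between O24 and T24 the difference was −0.69 ± 0.21 (edgeR, adjusted p = 0.0113).

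MLOC_14746 pairs with MSH1, a MutS homolog that guards organelle genomes against recombination in *Arabidopsis*. MLOC_14746 measured 7.01, 8.35, 6.09 and 6.64 CPM in the 4 C libraries, with the 4 W2 libraries at 3.79, 1.26, 1.41 and 2.02 CPM and the 4 W24 libraries at 5.03, 7.199, 4.91 and 6.06 CPM. It was among the least abundant members, and W2 replicate 1 was nearest to the controls without reaching them. Under mites the values were 7.25, 5.79, 4.65 and 6.63 CPM in O2, 6.305, 6.06, 7.06 and 5.93 CPM in T2, 4.95, 5.64, 6.37 and 4.38 CPM in O24 and 7.54, 5.85, 5.78 and 5.85 CPM in T24. These values overlapped the controls in every mite group. The change in W2 was −1.52, the third nearest to the limit.

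MLOC_17990 pairs with a locus of the serine carboxypeptidase S28 family, peptidases that cut next to proline. The 4 C libraries measured 84.6, 75.3, 78.7 and 80.5 CPM for MLOC_17990, with the 4 W2 libraries at 29.9, 21.6, 24.97 and 23.4 CPM and the 4 W24 libraries at 77.1, 83.7, 84.3 and 86.1 CPM. It varied little between replicates of a group, and every W2 library lay far below the rest. With mite feeding it measured 83.8, 83.95, 86.6 and 80.1 CPM in O2, 91.2, 83.96, 87.8 and 83.04 CPM in T2, 68.4, 66.4, 63.4 and 61.1 CPM in O24 and 87.5, 83.01, 79.8 and 91.2 CPM in T24. O24 was below every other mite library and every control library, and the 3 other mite groups overlapped. The difference between O24 and T24 was −0.39 ± 0.08 on the log2 scale (SE; edgeR, adjusted p = 0.000448), and that between O24 and W24 was −0.45 ± 0.08 (edgeR, adjusted p = 2.73e-05).

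MLOC_34008, whose partner's role is not described here, had the third lowest change in W2, −2.05. MLOC_34008 measured 76.3, 75.8, 81.5 and 83.2 CPM in the 4 C libraries, with the 4 W2 libraries at 21.03, 15.4, 19.3 and 19.1 CPM and the 4 W24 libraries at 94.8, 74.3, 99.7 and 84.01 CPM. W2 was far below, and W24 reached above the controls in 3 of 4 libraries. The mite libraries measured 57.7, 59.7, 60.5 and 54.7 CPM in O2, 55.4, 63.3, 66.8 and 61.9 CPM in T2, 56.4, 49.5, 65.01 and 61.3 CPM in O24 and 79.4, 59.6, 59.4 and 57.6 CPM in T24. In O2, T2 and O24 every library was below every control library, and in T24 only replicate 1 was inside the control range. O24 differed from W24 by −0.71 ± 0.12 on the log2 scale (SE; edgeR, adjusted p = 1.04e-05) and T24 by −0.56 ± 0.12 (edgeR, adjusted p = 0.000358).

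The lowest changes in W2 belonged to MLOC_71172 at −2.30 and MLOC_56994 at −2.28, which have no partner in the pairs held here. The 4 C libraries measured 31.1, 43.5, 31.2 and 26.04 CPM for MLOC_71172, with the 4 W2 libraries at 9.03, 4.21, 5.61 and 6.34 CPM and the 4 W24 libraries at 29.03, 26.4, 31.999 and 17.7 CPM. The W2 libraries were far below, and 1 W24 library lay under the control range. Under mites the values were 35.03, 26.6, 34.8 and 24.2 CPM in O2, 36.4, 26.8, 23.99 and 25.2 CPM in T2, 28.8, 26.2, 35.6 and 24.7 CPM in O24 and 29.5, 29.7, 27.8 and 23.9 CPM in T24. Each mite group overlapped the controls. MLOC_56994 measured 33.1, 33.1, 29.7 and 32.1 CPM in the 4 C libraries, with the 4 W2 libraries at 9.07, 4.38, 4.98 and 6.27 CPM and the 4 W24 libraries at 47.1, 41.02, 34.04 and 36.1 CPM. Control libraries were close together, and all 4 W24 libraries were above them. With mite feeding it measured 38.9, 30.4, 33.6 and 30.1 CPM in O2, 30.5, 29.2, 28.5 and 31.2 CPM in T2, 37.2, 33.7, 33.3 and 24.9 CPM in O24 and 49.1, 57.4, 57.3 and 41.1 CPM in T24. T24 was above every library of the 3 other mite groups. MLOC_56994 had a log2 difference of −0.67 ± 0.16 (SE) between O24 and T24 (edgeR, adjusted p = 0.00167) and of 0.59 ± 0.16 between T24 and T2 (edgeR, adjusted p = 0.00337), neither past the fold limit.

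**Figure D4:**
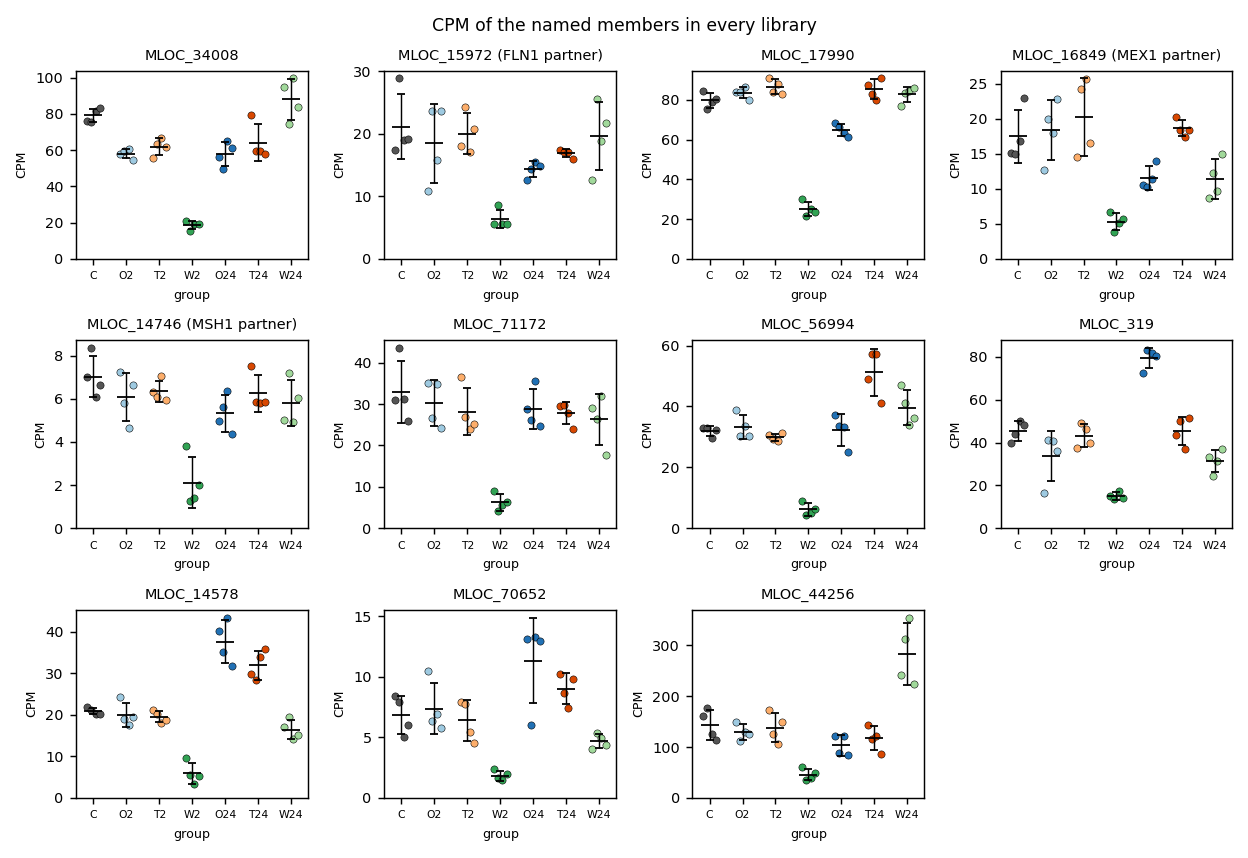
Each panel is 1 named member, with the CPM of the 4 libraries of each group as points and the mean and SD as bars. In every panel the W2 mean is the lowest, while MLOC_319, MLOC_14578 and MLOC_70652 are highest in O24 and MLOC_44256 is highest in W24.

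Over the 41 members the group with the highest mean was C in 12 members, O24 in 9, T2 and W24 in 6 each, T24 in 5 and O2 in 3. After W2, the lowest mean was in O24 in 17 members and in W24 in 11. Changes in O2 ran from −0.48 to 0.22 and in T2 from −0.57 to 0.24, while those in O24 ran from −0.58 to 0.88, in T24 from −0.56 to 0.67 and in W24 from −0.59 to 0.97. In O2 28 members were below the control mean, in T2 32, in O24 and T24 25 each, and in W24 30. Of the 10977 genes in the control range, 4040 were below their control mean in O2 and 4993 in T2. In O24 4853 were below, in T24 4319 and in W24 3922. The W2 change that chose the members shares this control mean. These counts, and those of the highest group, are therefore no evidence about the members. On TMM-adjusted library sizes the median change of the members was −0.43 in O24, −0.31 in T24 and −0.21 in W24, and 12 members lay below the window in O24, 6 in T24 and 4 in W24. The SD between replicates had a median over members from 0.16 in T24 to 0.28 in W2 on the log2 scale.

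The 6 comparisons between treatments other than the control and W2 asked whether the 2 mites, the 2 times, or mites and wounding at 24 h differed for these genes. The rule did not use these differences, but its window allowed at most 1.6 between any 2 of the changes, so counts of members below the share of all genes say nothing particular about the members. A call was an adjusted p under 0.01 with an absolute log2 fold change over 1 (edgeR). Between O2 and T2 edgeR called 0 members and 0% of the 16948 tested genes, and DESeq2 also called 0 members. At an unadjusted p under 0.05 there were 2 members, compared with 3.05% of tested genes. No member had O2 and T2 libraries that did not overlap, against 1.59% of tested genes.

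Between O24 and T24 edgeR called 0 members, against 9.33% of tested genes, and DESeq2 called 0. An unadjusted p under 0.05 was found for 11 members, against 46% of tested genes. At any fold, 6 members had an adjusted p under 0.01 (edgeR) compared with 26.6% of tested genes. MLOC_319, MLOC_7150, MLOC_53134 and MLOC_69222 were higher in O24, and MLOC_56994 and MLOC_17990 were lower in O24, of which MLOC_7150, MLOC_53134 and MLOC_69222 were named after their values were seen. MLOC_53134 measured 73.4, 54.8, 72.02 and 85.8 CPM in the 4 O24 libraries and 49.1, 43.1, 39.2 and 56.4 CPM in the 4 T24 libraries. These groups overlapped in 1 library each, and the log2 difference was 0.61 ± 0.13 (SE; edgeR, adjusted p = 0.000384). Libraries of O24 and T24 did not overlap in 11 members, 8 lower and 3 higher in O24, compared with 35.7% of tested genes.

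Between O24 and O2 edgeR and DESeq2 each called 1 member, MLOC_319, against 31.4% of tested genes by edgeR. MLOC_319, MLOC_14578, MLOC_70652 and MLOC_44256 were named because they were called. MLOC_319 measured 39.6, 43.8, 50.02 and 47.98 CPM in C, 15.1, 13.7, 17.5 and 14.1 CPM in W2 and 33.1, 24.6, 31.2 and 36.8 CPM in W24. The mite libraries measured 16.6, 41.3, 40.9 and 36.2 CPM in O2, 37.5, 48.9, 46.2 and 39.6 CPM in T2, 72.6, 83.1, 81.8 and 80.5 CPM in O24 and 43.6, 50.02, 37.1 and 51.4 CPM in T24. O24 was above every other library, and O2 replicate 1 was far under the 3 other O2 libraries. The gene rose by 1.08 ± 0.19 on the log2 scale from O2 to O24 (SE; edgeR, adjusted p = 1.59e-05), and the difference was 0.86 without O2 replicate 1 and 0.97 with upper-quartile scaling, both under the fold limit. O24 and T24 differed by 0.81 ± 0.19 (edgeR, adjusted p = 0.00128). The mite difference changed between the times by 1.195 ± 0.267 (interaction, edgeR, adjusted p = 0.00255), a test added after the values were seen that called this 1 member and 4.71% of tested genes. At any fold 2 members had an adjusted p under 0.01 in it (edgeR), against 9.62% of tested genes, and its value for MLOC_319 was 0.97 without O2 replicate 1.

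At any fold 14 members had an adjusted p under 0.01 between O24 and O2 (edgeR), against 60.8% of tested genes, and the libraries did not overlap in 12, 7 of them lower in O24, against 64.2%. Between T24 and T2 edgeR called 0 members, against 13.3% of tested genes, and DESeq2 called 0, while 18 had an unadjusted p under 0.05, against 56.7% of tested genes. At any fold 7 passed an adjusted p under 0.01 (edgeR), against 38.8% of tested genes. Libraries of T24 and T2 did not overlap in 10 members on the CPM scale, against 46.6%, and 8 of the 10 were higher in T24. By the TMM-scaled edgeR estimates 12 of the 41 members were higher in T24 than in T2 and 29 lower, with a median of −0.21. Among the members with an adjusted p under 0.01 (edgeR), the largest rise was in MLOC_51160, named after its values were seen. It measured 40.4, 41.2, 39.3 and 34.8 CPM in T2 and 79.6, 62.2, 74.7 and 80.6 CPM in T24. Every T24 library was above every T2 library, and the log2 difference was 0.74 ± 0.17 (SE; edgeR, adjusted p = 0.000812). The largest fall was as big, −0.74 ± 0.17 in MLOC_3959, also named after its values were seen (SE; edgeR, adjusted p = 0.0008185).

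Between O24 and W24 edgeR and DESeq2 each called 4 members, 3 higher and 1 lower in O24, against 29.4% of tested genes by edgeR. The 3 higher were MLOC_319, MLOC_14578 and MLOC_70652. MLOC_14578 measured 40.3, 35.2, 43.3 and 31.7 CPM in O24, 29.8, 28.3, 33.9 and 35.8 CPM in T24, 17.1, 19.4, 14.1 and 15.2 CPM in W24 and 21.8, 21.1, 20.3 and 20.2 CPM in C. Both 24 h mite groups lay above W24 and above the tightly grouped controls. O24 and W24 differed by 1.09 ± 0.16 on the log2 scale (SE; edgeR, adjusted p = 1.76e-06), and by 0.99, under the fold limit, with upper-quartile scaling. MLOC_70652 measured 13.1, 6.04, 13.3 and 12.9 CPM in O24 and 4.05, 5.34, 4.91 and 4.34 CPM in W24. O24 replicate 2 stood apart, near the W24 values but above them, and the difference was 1.18 ± 0.22 (SE; edgeR, adjusted p = 3.70e-05). For MLOC_319 it was 1.24 ± 0.19 (SE; edgeR, adjusted p = 2.44e-06).

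MLOC_44256 was the member lower in O24 than in W24 and the only member called between T24 and W24, by edgeR and by DESeq2, where edgeR called 13.9% of tested genes. It measured 161, 176, 126 and 113 CPM in C, 60.5, 34.6, 39.8 and 48.7 CPM in W2 and 242, 312, 354.3 and 224 CPM in W24. Every W2 library was below and every W24 library above the control range. Under mites the values were 149, 112, 131 and 126 CPM in O2, 172, 126, 105 and 149.9 CPM in T2, 121, 88.8, 123 and 83.4 CPM in O24 and 144, 116, 121 and 86.5 CPM in T24. The mite groups overlapped the controls and lay under all W24 libraries. The log2 difference was −1.54 ± 0.18 (SE; edgeR, adjusted p = 5.38e-08) between O24 and W24 and −1.37 ± 0.18 (SE; edgeR, adjusted p = 1.27e-06) between T24 and W24. At any fold 16 members had an adjusted p under 0.01 between O24 and W24 (edgeR), against 58.8% of tested genes, and 6 between T24 and W24, against 38.5%. Libraries did not overlap in 13 members for O24 and W24, against 63.4%, and in 12 for T24 and W24, against 46.5%.

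**Figure D5:**
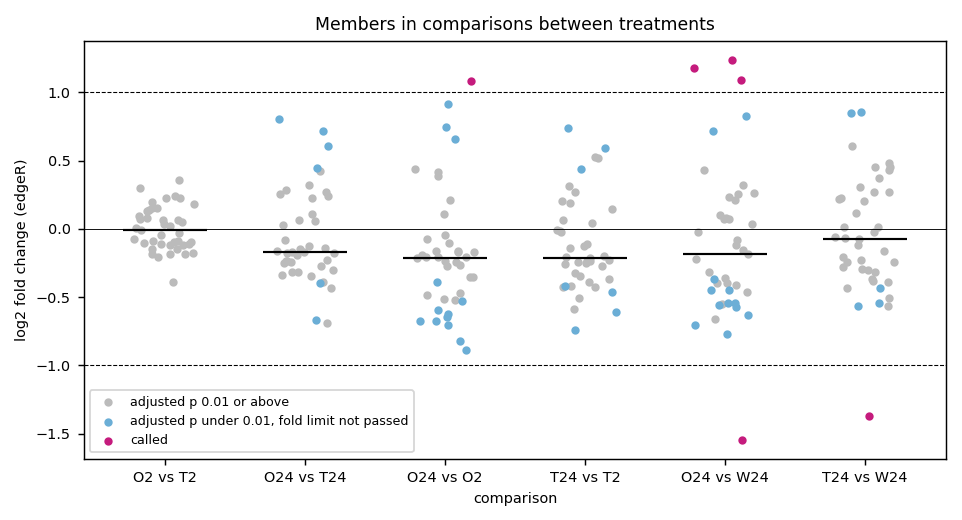
Each point is 1 of the 41 members, with its edgeR log2 fold change in 6 comparisons between treatments, bars mark the median and dashed lines the fold limit. Called members are 0 for O2 against T2, O24 against T24 and T24 against T2, 1 for O24 against O2, 4 for O24 against W24 and 1 for T24 against W24.

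Listed genes of related processes, found through the same pairs, gave the setting of these members in W2 against C, a contrast the rule used. Of the 16948 tested genes edgeR called 31.8% there in either direction, 3266 higher and 2129 lower. Of 5 tested starch and sugar genes edgeR called 1 lower, the member MLOC_16849 (MEX1), whose call followed from the rule. The 1 called higher was the partner of the starch-phosphorylating enzyme GWD1 (MLOC_14775, 1.201 ± 0.253, SE, edgeR, adjusted p = 0.000166). Of 7 photosynthesis genes 4 were called lower, among them LHCB3, a light-harvesting protein of photosystem II (MLOC_17002, −1.65 ± 0.22, edgeR, adjusted p = 2.42e-07). LHCB3 was also low at 24 h with mites, with changes of −2.23 in O24 and −1.38 in T24. The rule's window kept such changes out of the members, and the control mean of LHCB3, 4215 CPM, was above the range it used. Of 7 tested growth hormone genes 2 were called lower, the brassinosteroid synthesis gene CPD and the auxin response factor ARF2, by −1.13 and −1.10. In the chlorophyll and heme list neither edgeR nor DESeq2 called a gene, and 4 of 4 had an unadjusted p under 0.05 (edgeR). The plastid isoprenoid list also had no call, with 3 of 5 under that p. No call was made among barley genes paired with chloroplast-encoded *Arabidopsis* loci, where 2 of 51 tested had such a p. Over all tested genes 73.2% had such a p. The libraries were made from poly(A) RNA, so nothing is concluded here about chloroplast transcription. Among 3 clock genes edgeR called GI higher, at 1.30, while the differences of LHY and PRR7, −0.72 and −0.45, did not pass the fold limit. Among 4 replication genes MCM5 was called higher, at 1.61. All 3 jasmonate genes were higher, with AOS, an enzyme of jasmonate synthesis, at 7.07 ± 0.61 (SE, edgeR, adjusted p = 2.78e-10).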

How the data were processed

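Poly(A) RNA libraries (stranded TruSeq, paired-end) were made from 28 barley leaf sections. Reads were aligned with STAR, version 2.5.1b per the labels while the study's methods name another version, and the authors counted uniquely mapped reads per gene with HTSeq 0.6.0. The deposited table holds raw counts of 25592 genes, not normalized, with 0 rows that name no gene. CPM was computed from these deposited counts by the column totals, which ran from 11708010 to 38321258, so low genes carry more counting error. Members were found by the rule in the report, with a pseudocount of 0.5 CPM. The members and lists were chosen with earlier results of these data known. The named genes were the members paired with an *Arabidopsis* locus and the 2 others with the lowest W2 change, and genes called in a comparison were added after their values were seen.

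Differences were tested with edgeR 4.0.16 (quasi-likelihood, TMM factors, expression filter by group with a minimum count of 10) in R 4.3.3 on all 28 libraries with 1 mean per group, and p-values were adjusted by Benjamini-Hochberg over 16948 genes. DESeq2 1.42.0, other scalings, other filters, a replicate block and the omission of each library were alternatives. The 42 replicate pairs differed by more than sampling noise (chi-square per gene 8.59 to 96.6). Replicates were separate leaves, and same-numbered libraries deviated together by correlations from −0.21 to 0.40, with 13 of 28 over 0.1. Between O24 and O2 all 4 libraries matched their own number best, and in the other comparisons 0 to 2 did. The study used a randomized block design, but the sample titles do not say that the numbers mark blocks. The main fit therefore did not pair them. The procedure was tested on simulated data for O24 against T24 over 16948 genes, using the fitted spread. Changed genes were drawn from those with a mean over 5 CPM. Recovery was 97.5% of 200 genes changed by 1.5 on the log2 scale and 87% of 200 changed by 1.2. The members' differences between O24 and T24 ran only from −0.69 to 0.81, so this recovery says nothing about the 0 members called there.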

Additional observations from a re-analysis of the deposited data

Results flagged for a closer look

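In 91 groups of 4 libraries (the members' median ratio, their summed level and the named genes), 6 had 1 library far from the other 3. Chance gives about 1 in 20 per group, and groups that share libraries are not independent. C replicate 2 had a median log2 ratio of the members to the control mean of 0.23, and the 3 other controls had −0.07 to −0.04. MLOC_15972 measured 28.9 CPM in C replicate 2, compared with 17.5 to 19.2 CPM in the others, and 8.55 CPM in W2 replicate 2, compared with 5.57 to 5.61 CPM. T24 replicate 1 was high for MLOC_34008, at 79.4 CPM against 57.6 to 59.6 CPM, and for MLOC_14746, at 7.54 CPM against 5.78 to 5.85 CPM. MLOC_70652 measured 6.04 CPM in O24 replicate 2, under the 12.9 to 13.3 CPM of the 3 others. For MLOC_319 the difference between the mites changed from 2 h to 24 h by 1.195 on the log2 scale (edgeR interaction, adjusted p = 0.00255).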

How the results depend on the processing

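Under the settings run 10 values moved and 0 reversed, where only the W2 changes of the named genes could count as reversed. The rule chose those genes on that change, so 0 reversals are no evidence of stability. A number of members was scored as moved by its size alone, whichever genes were shared. The number of members was 25 with TMM scaling and 25 with DESeq2's size factors, sharing 21 and 23 with the 41. It was 50 with upper-quartile scaling, 52 with a pseudocount of 0.25 CPM and 36 with 1 CPM, sharing 17, 40 and 32, and 29 to 66 with 1 library left out. The members' median W2 change was −1.86 with upper-quartile scaling and −1.81 to −1.61 with 1 library left out. Between O24 and O2 the calls were 0 with upper-quartile scaling, 2 with library size alone, and 0 to 1 with 1 library left out, where O2 replicate 1 ended the call of MLOC_319. With that library left out the interaction, added after seeing the data, called 0 members, against 0 to 1 over all libraries left out. With upper-quartile scaling MLOC_14578 lay at 0.99 between O24 and W24, under the fold limit, and 3 members were called. The replicate block left the counts of called members at 0, 0, 1, 0, 4 and 1 for the 6 comparisons, in the order plotted, and at 1 for the interaction. Members with few counts in W2, down to 18 per library, have the least precise changes.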
